A study of Homo sapiens with 2 samples.

Results

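MYC and the genes of the MAX network encode transcription factors that bind the same DNA sites in competition with one another. The set was a fixed list of 9 genes, taken by name but chosen with earlier results of these data known. It holds MYC, its partner MAX, the antagonists MXD1, MXD3, MXD4, MXI1, MNT and MGA, and the MAX-like protein MLX. Of these, 8 had a row among the 12014 rows (12007 gene symbols) of the RNA-seq files, and all 8 were among the 10702 symbols whose mean FPKM was 1 or more. MXD3 was not analysed here. FPKM is the number of sequenced fragments scaled to the length of the transcript and to the number mapped in the library, so it can be compared between genes of unequal length.

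The data were 2 poly(A)-selected RNA-seq libraries of ACHN cells, an established human renal carcinoma line grown from a metastatic effusion, with 1 library per group. The shKIAA1429 cells carried a lentiviral shRNA against KIAA1429 (official symbol VIRMA), a scaffold subunit of the complex that writes N6-methyladenosine (m6A) on mRNA, and the shNC cells carried a control shRNA. Both were stable populations selected with puromycin, the labels call the first a knockout while the methods describe shRNA knockdown, and which of the shRNAs made against KIAA1429 was sequenced is not given in the sources used here. The study asked which transcripts depend on KIAA1429 in renal carcinoma cells and took up MYC partly from these same libraries, so its difference here is a description of that choice and not independent support for it. With 1 library per group there is no replicate error, no test was run, and "higher" and "lower" below compare these libraries alone.

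MYC forms a heterodimer with MAX through a basic helix-loop-helix leucine zipper, and the dimer binds E-boxes, of which CACGTG is the canonical form, and recruits coactivators. MXD1, MXD4, MXI1, MNT and MGA take MAX into dimers that bind the same sites, where MXD proteins and MNT bring the SIN3-HDAC corepressor and MGA belongs to the polycomb complex PRC1.6. MLX pairs with MNT and some MXD proteins, and with the glucose-responsive factors MLXIP and MLXIPL. MYC mRNA and protein are both short-lived, and MYC is one of the best known drivers of ribosome production and growth in cancer cells.

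The E-box itself was present near the start of several of these genes. The windows below are 30 bases long, are given in the direction of the gene with CACGTG in capitals, and are shown because they are the network's own binding motif in its own genes and in 3 genes commonly listed as induced by MYC. Sequences and positions are those of RefSeq on GRCh38.p14, and CACGTG reads the same on both strands.
MXD4, chr4:2262330-2262359, minus strand: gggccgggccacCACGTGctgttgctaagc
MNT, chr17:2401236-2401265, minus strand: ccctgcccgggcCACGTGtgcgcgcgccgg
MLX, chr17:42567038-42567067, plus strand: gcgggcgcgggtCACGTGggcacgccaccc
ODC1, chr2:10448024-10448053, minus strand: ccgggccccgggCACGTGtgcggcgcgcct
SLC7A5, chr16:87869620-87869649, minus strand: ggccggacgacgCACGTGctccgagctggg
APEX1, chr14:20455109-20455138, plus strand: aagcgtctccgtCACGTGgtgtcagacaga
APEX1, chr14:20455170-20455199, plus strand: cgcgcctctgatCACGTGaccaggtccgct
APEX1, chr14:20455191-20455220, plus strand: aggtccgctaccCACGTGggggctcagcgt

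Counted from the start of transcription, the motif began at position -238 in MXD4, -193 in MNT, -50 in MLX, -29 in ODC1, -130 in SLC7A5, and -105, -44 and -23 in APEX1. ODC1 held another copy at position 5, after the start, and FBL, which encodes fibrillarin and is also listed as induced by MYC, held a copy at position 6, and those windows are not printed. In all, 7 of the network genes had a promoter window of 300 bases (250 before the start and 50 after it), and 3 of them held CACGTG, while none of the windows of MAX (2 windows), MXD1 (1), MXI1 (3) and MGA (3) did. Counted per gene in the same way, 13.2% of the genes whose mean FPKM was 1 or more and that had a window held the motif, and counted per window it was 7.26% of all 35116 RefSeq windows. With 7 genes the count describes these genes alone. A match is a run of letters and does not show that a factor binds there.

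As a whole the libraries differed in ways that bear on every level below. The FPKM values summed to 283046 in shNC and 249409 in shKIAA1429, and 42.2% and 34.6% of these sums came from 13 mitochondrial genes. Without them the sums were 163587 and 163171. The median difference over all 10702 genes, as log2 of (FPKM + 1) in shKIAA1429 minus the same in shNC, was 0.06, and rescaling each library to an equal sum raised this median by 0.18. With the mitochondrial genes left out of the rescaled sum, the median rose by 0.015. The targeted gene VIRMA had 3.92 FPKM in shNC and 3.22 in shKIAA1429, 82.1% of the control level. Its difference was -0.22, or -0.095 after rescaling, against medians of 0.06 and 0.24 over all genes. Rescaled without mitochondrial genes, its difference was -0.27 against a median of 0.07. These libraries thus show only a slightly lower level of the targeted mRNA. The study itself reported significantly reduced KIAA1429 mRNA by RT-qPCR and protein by western blot in its ACHN knockdown cells. Those assays are other measures than the FPKM of 1 library per group. Of 12 renal epithelial and renal carcinoma markers 11 had a row, with summed levels of 811 and 718 FPKM and no level under 4.29. VIM gave the largest part of these sums (368 and 228 FPKM), so they do not describe the other markers. Of the 11, 4 were higher and 7 lower, against 57.3% of all genes higher. They ran from LHX1 (11.0 and 4.44 FPKM) to PAX8, a renal lineage factor (64.7 and 104 FPKM). Of 9 leukocyte, endothelial and fibroblast markers CD68 and COL1A1 had a row, at 1.08 to 3.87 FPKM. In bulk RNA, fewer cells of a type and less RNA per cell cannot be told apart, and the part of these differences in the results was not tested.

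MYC (ENSG00000136997.17_3, chr8:128747680-128753680 on GRCh37, plus strand), the activating arm of the network, was the member that stood out. MYC had 28.5 FPKM in shNC and 4.53 FPKM in shKIAA1429. The level was thus much lower with the KIAA1429 shRNA, at 15.9% of the control. On the log2(FPKM + 1) scale the difference was -2.42, the fifth lowest of 10702 genes. No other listed gene overlapped MYC. Genes without a row could not be checked for overlap. The direction was the same under every pseudocount and scaling tried, from -2.65 with no pseudocount to -2.41 with each library rescaled to an equal sum.

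MAX (ENSG00000125952.18_2, chr14:65472892-65569413 on GRCh37, minus strand) is the partner that MYC, the MXD proteins, MNT and MGA share in dimers that bind E-boxes. It had 10.3 FPKM in shNC and 15.4 FPKM in shKIAA1429. MAX was the member with the highest difference, 0.55 on the log2(FPKM + 1) scale, or 1.51 times the control FPKM. With a pseudocount of 0.1, with none or after rescaling, MXD1 was higher than MAX in this difference (0.64 against 0.59 with a pseudocount of 0.1). It overlaps FNTB and the read-through gene CHURC1-FNTB on the opposite strand, whose levels were lower than that of MAX in both libraries (3.63 and 4.29 FPKM for FNTB, 1.68 and 1.21 FPKM for CHURC1-FNTB). The library kit kept strand, but whether the counting used it is not given in the sources used here.

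The antagonists took no common direction. MXD1 (ENSG00000059728.10_3, chr2:70124820-70170077, plus strand), a repressor best known from differentiating cells, had 2.22 FPKM in shNC and 3.51 FPKM in shKIAA1429, a difference of 0.49. Its level was higher in the shKIAA1429 library, but it overlaps the splicing gene SNRNP27 on the same strand, which had 10.3 FPKM in both. With the levels of MXD1 and SNRNP27 added together, a comparison chosen after seeing the data, the difference was 0.13.

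MXI1 (ENSG00000119950.20_4, chr10:111967363-112047123, plus strand), also called MXD2, had 5.77 FPKM in shNC and 6.77 FPKM in shKIAA1429. MGA (ENSG00000174197.16_1, chr15:41913422-42065279, plus strand), a very large protein that carries a T-box domain beside its MAX-binding domain, had 3.15 FPKM in shNC and 3.63 FPKM in shKIAA1429. Both were a little higher in the shKIAA1429 library, by 0.20 and 0.16 on the log2(FPKM + 1) scale, against a median of 0.06 over all genes.

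MNT (ENSG00000070444.14_2, chr17:2287354-2304412, minus strand), the most widely expressed of the antagonists, had 5.79 FPKM in shNC and 5.08 FPKM in shKIAA1429. MXD4 (ENSG00000123933.16_3, chr4:2249159-2264021, minus strand) had 2.92 FPKM in shNC and 2.85 FPKM in shKIAA1429. Both were slightly lower in the shKIAA1429 library, by -0.16 and -0.03 on the log2(FPKM + 1) scale. With each library rescaled to an equal sum, MXD4 had 0.14 and the median of all genes 0.24, so MXD4 lay below that median either way.

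MLX (ENSG00000108788.11_2, chr17:40719086-40725257, plus strand) had 13.6 FPKM in shNC and 13.0 FPKM in shKIAA1429, a difference of -0.06, or 0.11 after rescaling, below the median of all genes in both cases. Its level was nearly equal in the libraries. MLX overlaps PSMC3IP on the opposite strand, which had 3.82 FPKM in shNC and 5.48 FPKM in shKIAA1429. With the levels of MLX and PSMC3IP added together, a comparison chosen after seeing the data, the difference was 0.08. The sign of the MLX difference thus depends on how reads were divided. MLXIP (also called MondoA), the partner with which MLX senses glucose metabolites, had 12.7 FPKM in shNC and 15.1 FPKM in shKIAA1429, a difference of 0.23. The other related genes MYCN, MYCL and MLXIPL were not analysed here.

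**Figure D1:**
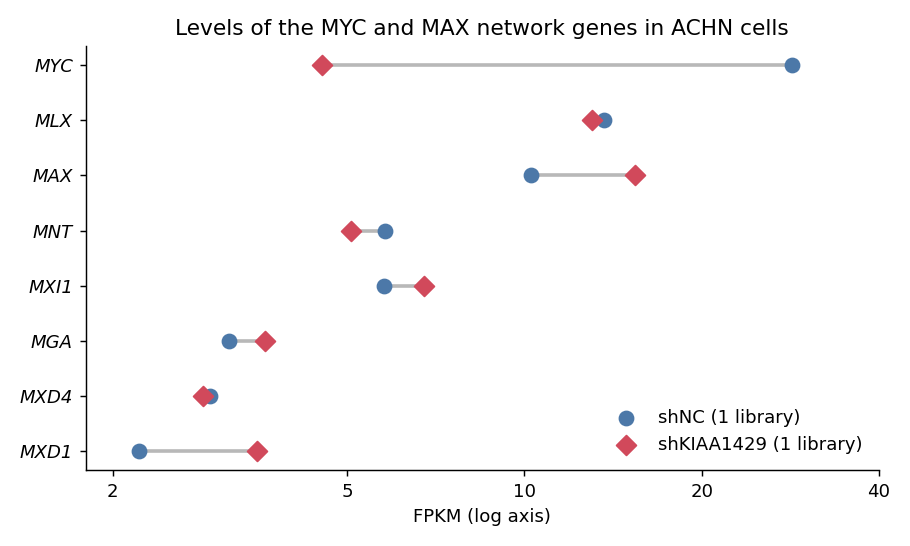
FPKM (log axis) of the 8 network genes in the shNC library (circles) and the shKIAA1429 library (diamonds), 1 library per group, with a line joining the values of each gene. MYC has the longest line, from 28.5 to 4.53 FPKM, and MAX and MXD1 are the genes whose diamond lies farthest to the right of the circle.

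Counted over the set, 4 members had more mRNA in the shKIAA1429 library and 4 had less, against 57.3% of all 10702 genes that were higher at any size. Past a limit of 1.5 on the log2(FPKM + 1) scale, MYC was lower and 0 members were higher. Over all genes 0.252% (27 genes) were lower and 0.383% (41 genes) were higher past this limit, and with each library rescaled to an equal sum 32 were lower and 133 higher. With no pseudocount 62 were lower and 115 higher. The value of 1.5 comes from the study's methods, which apply it to a log2 fold change together with a p-value limit. The counts here are therefore not at the study's own criterion. Past 0.5 in either direction, MYC was again the only member lower and MAX the only member higher, against 6.12% of all genes lower and 9.90% higher. The calls at 0.5 depended on the setting, since MAX had 0.49 when centred on the median of all genes, and MXD1 also passed 0.5 with a pseudocount of 0.1 (0.64), with none (0.66) and after rescaling (0.77). The median over the 8 members was 0.07, close to that of all genes, and 5 of them lay within 0.25 of zero. Without MYC the differences ran from -0.16 in MNT to 0.55 in MAX. MYC was thus the exception in a set whose other members lay in the range where most genes lay.

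**Figure D2:**
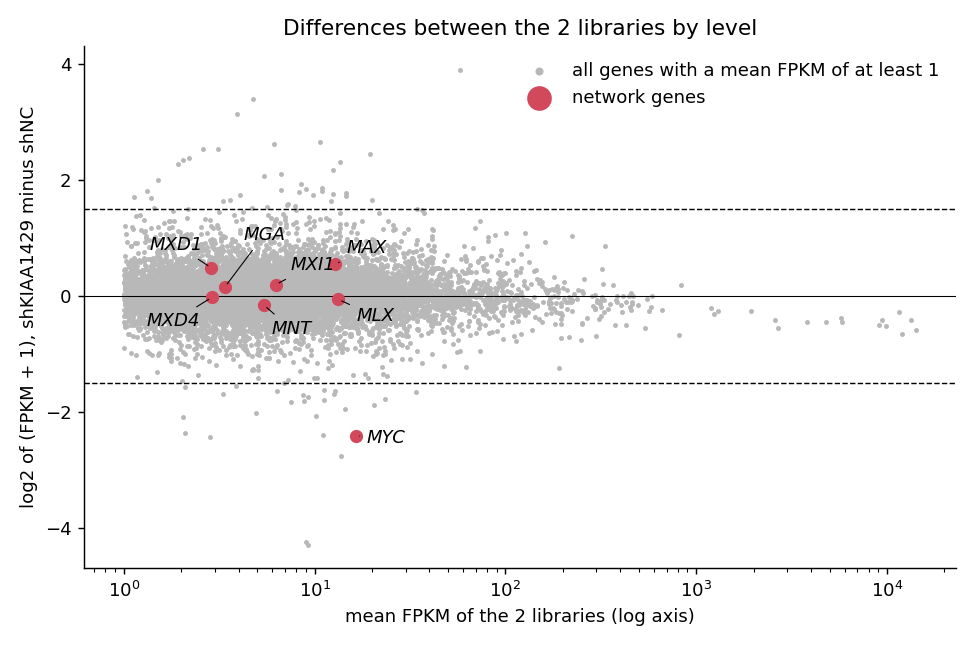
Difference between the libraries (log2 of FPKM + 1, shKIAA1429 minus shNC) against the mean FPKM (log axis) for all 10702 genes whose mean FPKM was 1 or more (grey) and the 8 network genes (red), with dashed lines at the limit of 1.5. MYC, at -2.42, lies below the lower line and the other 7 members lie inside the grey cloud.

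The order of the levels differed between the libraries. In shNC it was MYC, MLX, MAX, MNT, MXI1, MGA, MXD4 and MXD1 from high to low, and the highest level was 12.8 times the lowest. In shKIAA1429 it was MAX, MLX, MXI1, MNT, MYC, MGA, MXD1 and MXD4, and this ratio was 5.41. MYC went from the first place to the fifth, and MAX from the third to the first. Neighbours such as MNT and MXI1 in shNC (5.79 and 5.77 FPKM) or MXI1 and MNT in shKIAA1429 cannot be ranked beyond error, since no library was repeated.

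The make-up of the set differed more than its sum. The 8 genes summed to 72.2 FPKM in shNC and 54.8 FPKM in shKIAA1429. MYC gave 39.4% of that sum in shNC and 8.25% in shKIAA1429. The 7 genes other than MYC summed to 43.7 and 50.3 FPKM, a difference of 0.20 on the log2(FPKM + 1) scale, so the lower sum of the whole set came from MYC.

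Relative to its partner and its competitors MYC mRNA was scarcer in the shKIAA1429 library. The ratio of MYC to MAX was 2.78 in shNC and 0.293 in shKIAA1429, so MYC was the more abundant transcript of this pair in the control and MAX in the other library. The ratio of MYC to the summed level of the 5 antagonists was 1.43 in shNC and 0.207 in shKIAA1429. Most of that difference lay in MYC, because the antagonists summed to 19.9 FPKM in shNC and 21.8 FPKM in shKIAA1429, a difference of 0.13. The ratio of MLX to MAX was 1.33 in shNC and 0.844 in shKIAA1429, and that of MLXIP to MLX was 0.928 and 1.16. These ratios are taken within a library and do not depend on its scaling, but mRNA ratios are not ratios of protein.

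**Figure D3:**
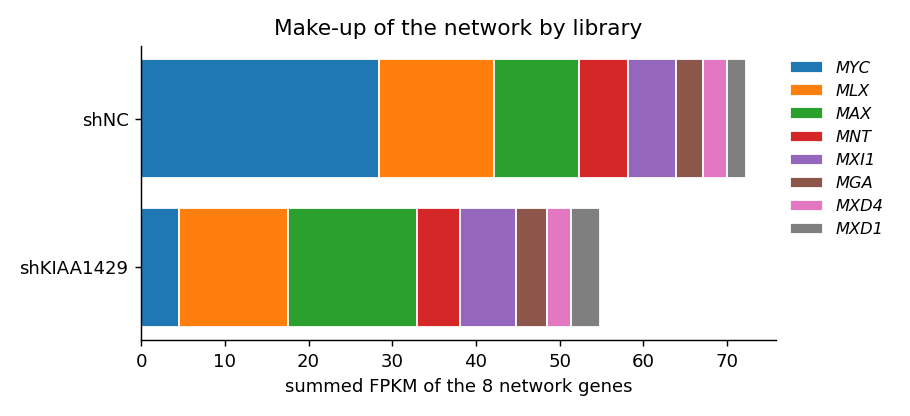
Summed FPKM of the 8 network genes in each library, with 1 coloured segment per gene. The MYC segment is 39.4% of the shNC bar and 8.25% of the shKIAA1429 bar, and the bars end at 72.2 and 54.8 FPKM.

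Over both libraries, the genes with the levels most like those of MYC were FSTL3, RNASEK-C17orf49, CCDC85B, AC004080.3 and TMEM250. Likeness was the Euclidean distance in log2(FPKM + 1) over the 2 libraries. FSTL3, a secreted protein that binds activin, was nearest at a distance of 0.330, with 23.6 FPKM in shNC and 5.35 FPKM in shKIAA1429. CCDC85B had 19.8 and 5.68 FPKM, and TMEM250 had 18.0 and 4.50 FPKM. The read-through gene RNASEK-C17orf49 (19.8 and 5.43 FPKM) and AC004080.3 (24.6 and 2.79 FPKM) each overlap 2 listed genes on the same strand, so their values depend on how reads were divided. With only 2 points per gene, such a likeness describes these libraries alone.

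The genes around MYC on its chromosome were compared as well. The nearest listed gene, and the only one within 2 Mb of its start, was FAM84B, which begins at -1.18 Mb from it and had 9.75 FPKM in shNC and 11.1 FPKM in shKIAA1429, a difference of 0.17. A wider span of 5 Mb, chosen after seeing the data, held 24 listed genes, of which 21 reached a mean FPKM of 1. Of these 15 were higher in the shKIAA1429 library and 6 lower, against 57.3% of all genes higher, with a median of 0.20. They ran from -0.53 in the pseudokinase gene TRIB1 (5.94 and 3.82 FPKM) to 1.05 in ZHX1 (1.01 and 3.17 FPKM), and 0 were lower past 1.5, a limit that only 0.252% of all genes passed in that direction, so this count says little about the region.

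**Figure D4:**
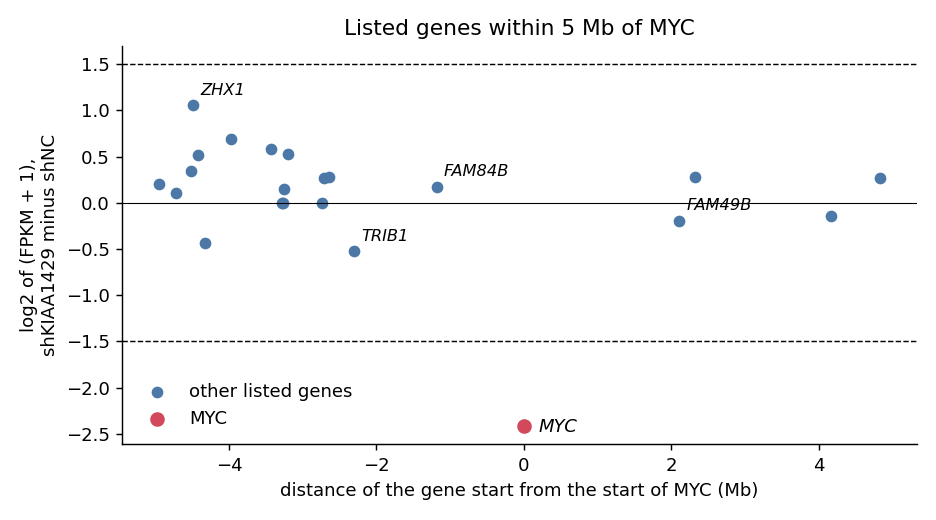
Difference between the libraries (log2 of FPKM + 1, shKIAA1429 minus shNC) of MYC (red) and of the 21 other listed genes that reached a mean FPKM of 1 and whose start lies within 5 Mb of the start of MYC (blue), against that distance in Mb. MYC, at -2.42, lies below the dashed limit, and the others lie between -0.53 (TRIB1) and 1.05 (ZHX1).

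The transcripts of the set differ in how often they hold GGACT, one of the pentamers of the m6A consensus, though no m6A was measured in these libraries. In the longest coding transcript of each gene in GENCODE 29, MYC held 4 in 2366 bases, or 1.69 per kilobase, more than 85.5% of the 10642 genes with such a transcript. MNT followed with 7 and 1.40 per kilobase, MLX with 3 and 1.16, and MAX with 3 and 0.951, near the median of 0.926 over all genes. MGA, MXI1, MXD4 and MXD1 lay lower, at 0.623, 0.576, 0.493 and 0.358 per kilobase. By number of copies the order was another one, since MGA held the most, 9 in 14439 bases, more than 91.8% of genes, and the 4 copies in MYC were more than 54.5% of genes hold. MGA, with the most copies, was higher in the shKIAA1429 library, by 0.16. By density MYC, MNT and MLX came first and, in that order, had the lowest differences (-2.42, -0.16 and -0.06). MAX and MXD4 broke the order, since MAX, next by density, had the highest difference (0.55) and MXD4 had -0.03. Neither measure thus orders all members as their differences do, and a link was not tested. Over all genes the median difference was 0.09 in the 2661 genes at or under the lower quartile of density and -0.0034 in the 2663 at or over the upper quartile, so the quartiles lay close together. Of the 4 GGACT in MYC 1 lay after the stop codon. MAX has 13 coding transcripts in that annotation, the shortest of 330 bases, and gene-level FPKM does not show which of them were made.

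The coactivators of MYC were measured in full, 15 of 15 listed genes. Of these 11 were higher in the shKIAA1429 library and 4 lower, against 57.3% of all genes higher, and the median was 0.10. Past 0.5 lay 1 of the 15, near the 9.90% of all genes. CCNT1, the cyclin of the elongation kinase P-TEFb that MYC recruits, had 5.66 FPKM in shNC and 8.68 FPKM in shKIAA1429, a difference of 0.54. BPTF, the largest subunit of the NURF remodeller, was next at 0.35. RUVBL2, an ATPase that works with MYC, was lowest, with 24.2 and 19.4 FPKM (-0.30), and HCFC1, a chromatin adaptor that binds MYC, had -0.02. None of the group lay near the difference of MYC itself.

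The SIN3-HDAC corepressor of the MXD proteins and MNT likewise had 15 of 15 genes measured, 12 higher and 3 lower, with a median of 0.11. Past 0.5 lay 2 of the 15, again close to the 9.90% of all genes, of which 57.3% were higher at any size. ARID4B, a SIN3-associated subunit, had 3.19 FPKM in shNC and 6.65 FPKM in shKIAA1429 (0.87), and overlaps another listed gene on the same strand. SIN3B, a scaffold of the complex, had 5.35 and 8.98 FPKM (0.65). The lowest were SAP30, with 7.09 and 5.75 FPKM (-0.26), and ING2, a reader of methylated histone H3, at -0.14. In the PRC1.6 complex of MGA 8 of 12 genes were higher and 4 lower, against 57.3% of all genes higher, with a median of 0.12. RYBP, an adaptor that binds the RING proteins, had 8.46 FPKM in shNC and 166% of that in shKIAA1429 (0.67), and CBX3, a heterochromatin protein, was next at 0.31. The ubiquitin ligase RING1 had 26.4 and 21.8 FPKM (-0.27), and TFDP2, a partner of E2F factors, had -0.20. The listed WDR5 belongs to both the coactivator and the PRC1.6 list.

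Among genes for proteins that act on MYC itself, TRIM32 stood highest. Of 19 listed ubiquitin ligases, deubiquitinases, kinases and phosphatases that act on MYC protein 18 had a row, 14 higher and 4 lower, against 57.3% of all genes higher, with a median of 0.13. TRIM32, a ubiquitin ligase that can target MYC, overlaps another measured gene on the opposite strand. It had 1.24 FPKM in shNC, a low level, and 5.08 FPKM in shKIAA1429. It was higher by 1.44, just inside the limit of 1.5, and 1.95 with a pseudocount of 0.1. USP36, a nucleolar deubiquitinase of MYC, had 8.04 and 11.7 FPKM (0.49), while PPP2R5A, a regulatory subunit of the phosphatase PP2A, had -0.21. FBXW7, the substrate receptor of the best known MYC ubiquitin ligase, had 1.87 FPKM in shNC and differed by 0.01, nearly the same level.

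Among 12 proteins listed as binding MYC mRNA, 11 reached a mean FPKM of 1, with 5 higher and 6 lower, against 57.3% of all genes higher, and a median of -0.11, the only median under zero among the lists drawn around the network. ZFP36 (tristetraprolin), which brings AU-rich mRNAs to decay, had 23.7 FPKM in shNC and 14.7 FPKM in shKIAA1429 (-0.66), and HNRNPD (AUF1), another binder of AU-rich elements, had 28.2 and 20.2 FPKM (-0.46). The highest were TIAL1, at 0.26, and PTBP1, at 0.19, both RNA-binding regulators of translation or splicing. The m6A readers of the IGF2BP family did not stand apart, with 33.5 and 34.9 FPKM for IGF2BP2, 9.95 and 9.13 FPKM for IGF2BP3, and IGF2BP1 under 1 FPKM in both libraries. Rescaling moved the median of this list to 0.07.

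Of 11 factors known to act on the MYC promoter 6 were higher and 5 were lower, near the 57.3% of all genes that were higher, with a median of 0.17. E2F1, which drives genes of S phase, had 2.98 FPKM in shNC and 5.68 FPKM in shKIAA1429 (0.75). STAT3, a factor activated by cytokine receptors, was higher by 0.52. YY1, a zinc finger factor, had 12.2 and 7.97 FPKM (-0.55), and NOTCH1, a receptor whose cleaved form activates MYC in some cells, had -0.42. Levels of mRNA do not show the activity of these factors.

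Genes commonly described as induced by MYC were mostly not lower in the library with little MYC mRNA. Of 45 listed genes 43 reached a mean FPKM of 1, and 31 of them (72.1%) were higher and 12 lower, against 57.3% of all genes higher. The median was 0.18, above the 0.06 of all genes. Past 0.5 lay 5 of the 43 upward and 2 downward, near the 9.90% and 6.12% of all genes. Past 1.5 upward lay 1 gene, against 0.383% of all genes. That gene was TFRC, the transferrin receptor that takes up iron, with 3.11 FPKM in shNC and 11.4 FPKM in shKIAA1429 (1.59). AMD1, an enzyme of polyamine synthesis, had 6.66 and 12.8 FPKM (0.85). The lowest were UBTF, a factor of RNA polymerase I, with 26.5 and 15.5 FPKM (-0.74), and IMPDH2, which makes guanine nucleotides, with 86.7 and 58.9 FPKM (-0.55). The list was written by hand from general knowledge and not from this cell line, so it does not show which of these genes MYC controls in ACHN cells.

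The MYC-induced genes whose E-boxes are described above were taken from both ends. ODC1, the first enzyme of polyamine synthesis, had a difference of -0.35, and FBL had -0.10, whereas SLC7A5, an amino acid transporter, had 0.61, and APEX1, a DNA repair endonuclease with 3 copies of the motif, had 24.8 and 43.0 FPKM (0.77). Among the listed MYC-induced genes that held the motif, these had the 2 lowest and 2 highest differences. That they lay on both sides therefore follows from how they were chosen. Of 35 MYC-induced genes with a promoter window, 17 held CACGTG, and 14 of these were higher and 3 lower, with a median of 0.22. This stands against 57.3% of all genes higher and 72.1% of the measured MYC-induced genes. The 18 without the motif had a median of 0.05, and a link to the motif was not tested. Over all genes the motif made little difference to the middle of the distribution. Of 8808 genes with a window 13.2% held CACGTG, with a median of 0.05 and quartiles of -0.14 and 0.26, and the 7645 genes without it had a median of 0.06 and quartiles of -0.15 and 0.27. In the network, the 3 members with the motif, MXD4, MNT and MLX, had differences of -0.03, -0.16 and -0.06, and MAX, MXD1, MXI1 and MGA without it had 0.16 to 0.55.

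Of 13 genes described as repressed by MYC 9 reached a mean FPKM of 1, with 5 higher and 4 lower, near the 57.3% of all genes higher, and a median of 0.02. CDKN1A (p21), an inhibitor of cyclin-dependent kinases, had 91.0 FPKM in shNC and 151 FPKM in shKIAA1429 (0.73), and CLU (clusterin), a secreted chaperone, was higher by 0.41. CDKN1B (p27), a related inhibitor, had 42.7 and 34.0 FPKM (-0.32), so these inhibitors lay on opposite sides. TSC2, a brake on mTORC1, had -0.11.

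Of 7 genes described as targets of MLX with MLXIP or MLXIPL 4 reached a mean FPKM of 1, with a median of 0.02. TXNIP, the thioredoxin-binding protein that is the classic target of MLXIP, had 3.91 FPKM in shNC and 10.2 FPKM in shKIAA1429 (1.19). ARRDC4, its relative in the arrestin family, had 0.173 and 0.585 FPKM, under the minimum for comparison. KLF10, a zinc finger factor, was higher by 0.22, while the fatty acid enzymes FASN and ACACA had -0.19 and -0.37. ACACB had under 1 FPKM in both libraries, and PKLR was not analysed here.

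**Figure D5:**
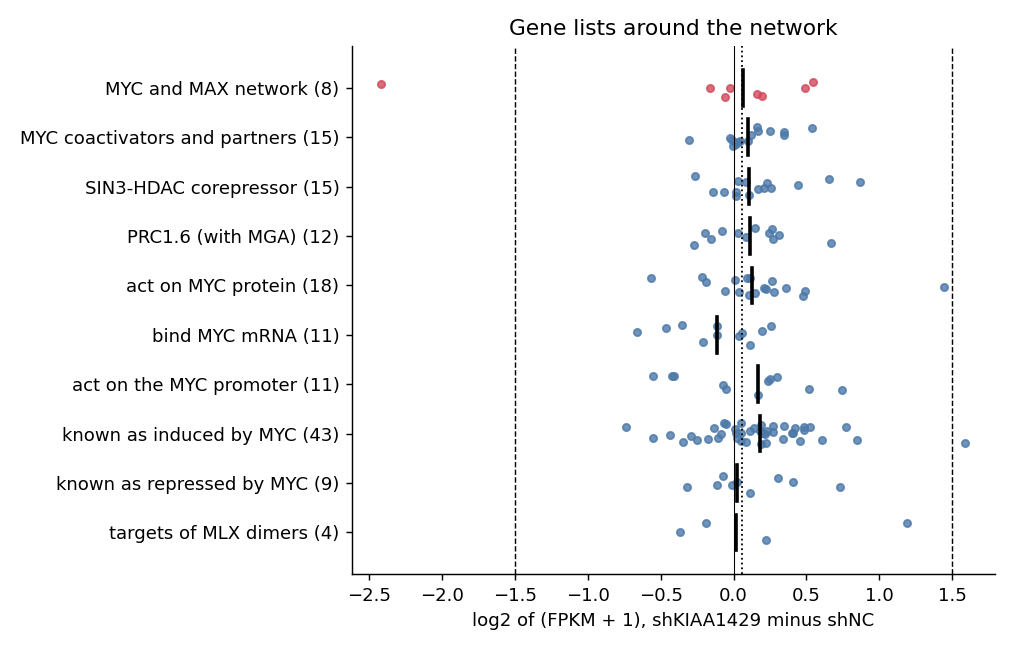
Difference between the libraries (log2 of FPKM + 1, shKIAA1429 minus shNC) of each gene that reached a mean FPKM of 1 in the network (red) and in the gene lists around it (blue), with the number of genes in brackets, a black bar at each list's median, a dotted line at the median of all genes (0.06) and dashed lines at 1.5. MYC, at -2.42, lies beyond the left dashed line, and TFRC, at 1.59 among the genes known as induced by MYC, beyond the right one.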

How the data were processed

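The 2 RNA-seq libraries of ACHN cells, 1 per group, were grouped by their labels. The authors deposited FPKM per gene, normalized to transcript length and library size. The submitters' processing notes name cutadapt 1.9, HISAT2 2.0.4 and StringTie 1.3.4d. The strand setting of the counting is not given in the sources used here. Gene positions in the files are on GRCh37. The lowest of each gene's higher value was 0.5004 FPKM, so genes silent in both libraries were not analysed here. Read counts cannot be had from FPKM, so the depth is unknown, with no counting interval.

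The difference was log2(FPKM + 1) in shKIAA1429 minus shNC, over symbols whose mean FPKM was 1 or more. For 7 symbols with several rows, only that of highest mean entered. Genes past 1.5 were counted. Differences of list members are on this scale wherever only a signed value is given. Gene lists were written by hand from known roles. The members and lists were chosen with earlier results of these data known. Named were the 9 members, VIRMA, from each list the genes past 1.5 and the 2 highest and 2 lowest (all genes of lists of up to 7), listed genes within 2 Mb of MYC and the 5 nearest to it in level; 1 gene that this rule names is not reported here. WDR5, FBXW7, the IGF2BP genes, ODC1, FBL, SLC7A5, APEX1, PAX8, TRIB1, ZHX1 and overlapping genes were named after their values were seen. Promoter windows were RefSeq (GRCh38.p14), matched for 82.3% of genes, and transcripts GENCODE 29. Alternatives changed the pseudocount, scaling, filter, limit and row choice. Only the calculation of the difference and the limit of 1.5 were tested on simulated data with known changes and assumed noise. The lists, motif counts, likeness and overlaps were not tested in this way. Python 3.11.15, NumPy 2.4.6, pandas 2.3.3 and matplotlib 3.10.9 were used.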

Additional observations from a re-analysis of the deposited data

How the results depend on the processing

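No paired analysis was possible because there was 1 library per group. The difference of MYC stayed past the limit of 1.5 under every alternative tried, and MYC was the only member past the limit at 1.5 and at 1. At 0.5, 1 member (MAX) was higher with the other settings kept. The counts over all genes moved much more. From 41 higher, the count went to 112 with a pseudocount of 0.1, 115 with none, 133 with libraries rescaled to 1000000, 107 when rescaled without mitochondrial genes, 172 at a limit of 1, 1060 at 0.5 and 24 at a mean FPKM of at least 5. From 27 lower, it went to 60 with a pseudocount of 0.1, 62 with none, 57 when rescaled without mitochondrial genes, 96 at a limit of 1 and 655 at 0.5. Of 58 named genes, 6 moved across zero or the limit under some alternative, MLX, MXD4, HCFC1, ING2 and TSC2 across zero on rescaling, which raised the median of all genes from 0.06 to 0.24, and TRIM32 past 1.5 (1.91 to 2.04). When rescaled without mitochondrial genes, MLX (-0.06), MXD4 (-0.03), HCFC1 (-0.02), ING2 (-0.15) and TSC2 (-0.12) kept their sign. Of 15 list medians, 4 changed sign under some alternative: the members to -0.06 at a mean FPKM of at least 5, the MYC mRNA binders to 0.07 on rescaling, the MYC-repressed genes to -0.03 when centred and -0.01 at a mean of at least 5, and the MLX targets to -0.04 when centred. These lie close to zero in either case. Without replicate libraries, no difference here can be set against replicate error.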

Other observations

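The renal markers outside the network were not uniform. Of 11 measured, 4 were higher and 7 lower in the shKIAA1429 library, against 57.3% of all genes higher. LHX1, a homeobox factor of kidney development, had 11.0 FPKM in shNC and 4.44 FPKM in shKIAA1429 (-1.14 on the log2(FPKM + 1) scale), and VIM (vimentin), an intermediate filament of mesenchymal and renal carcinoma cells, had 368 and 228 FPKM (-0.69). PAX8, at 0.68, and MET, a receptor tyrosine kinase of renal carcinoma, at 0.52, were the highest.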
